A study of Mus musculus with 4 samples.

Results

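The genes described here are the core regulators of the mammalian cell cycle in mouse MLL-AF9 leukaemic cells: A, B, D and E-type cyclins, cyclin-dependent kinases (CDKs), CDK inhibitors, E2F and DP transcription factors, retinoblastoma (pocket) proteins, CDC25 phosphatases, and Wee1, Skp2, Cks1b and Cks2. They were taken by symbol from the deposited table, and 53 of its 16545 genes qualified, with 1 to 2 transcripts each and 62 in all. Reads were summed over the transcripts of a gene. The OHT group (2 samples) and the EtOH group (2 samples) are leukaemic cells of strain C57BL/6 that carry Ring1a-/-, Ring1bf/f and Cdkn2a-/- alleles, taken from mouse bone marrow, grown in liquid culture and treated for 72 h with OHT or with EtOH. All 4 samples thus share the loss of Ring1a and Cdkn2a, and the OHT samples are titled as the Ring knockout. Ring1a and Ring1b (gene symbols Ring1 and Rnf2) are the ubiquitin ligases of Polycomb repressive complex 1. The labels do not name the recombinase that OHT acts on, and they leave unsaid if the 2 samples per group derive from different mice or cultures. The p-values below therefore reflect the spread of these 4 samples alone, and that spread may be technical. Cells given OHT that lack the floxed allele were not analysed here; what OHT does by itself and what Ring1b loss does cannot be told apart.

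In the textbook cell cycle, D-type cyclins with their kinases phosphorylate the retinoblastoma proteins, which then release E2F factors paired with DP proteins. E2F activates genes of DNA replication and the E and A-type cyclins, cyclin E and cyclin A with CDK2 drive S phase, and cyclin B with CDK1 drives mitosis. CIP/KIP and INK4 inhibitors restrain these kinases, WEE1 adds inhibitory phosphates to CDK1 and CDK2, and CDC25 phosphatases remove them. Many of the cyclins, CDC25 genes and E2F genes are themselves E2F targets, and the locus of Cdkn2a and Cdkn2b is a classical site of Polycomb silencing.

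The deposited file gives 1 mean per group, from which the reads of both libraries of each group were solved. The solved libraries, called A and B without regard to the replicate numbers of the labels, held 5687967 and 4509718 reads for OHT and 6255320 and 3841243 for EtOH. Values are given as normalised reads, the solved reads divided by the library's size factor. Rnf2 had 716 and 797 normalised reads in OHT libraries A and B, against 687 and 583 in EtOH libraries A and B, so a loss of its mRNA was not seen; which exons are floxed is not stated, and this count does not check the labels. Ring1 had 149 and 93.8 with OHT and 49.8 and 84.6 with EtOH although both groups carry its deletion. Of the 8 myeloid markers, Spi1, Cebpa and Fcgr3 had over 1000 normalised reads in every library, Ptprc, Itgam and Mpo lay between 14.3 and 351, and Kit had at most 5.58. The remaining one, Csf1r, had 1471 and 746 in OHT libraries and 229 and 124 in EtOH libraries and rose (log2 fold change 2.58, limma-voom adjusted p = 0.00378). Of 4 measured fibroblast or stroma markers, Col1a1 rose (log2 fold change 2.72, limma-voom adjusted p = 0.0161). It had 31.9 and 26.8 in OHT libraries and 3.32 and 5.21 in EtOH libraries. Pdgfra and Pdgfrb had at most 2.23 in any library. Col1a2 went the other way, with 0 in both OHT libraries and 0 and 3.91 in EtOH libraries. Limma-voom called 0 of the measured endothelial, B cell and erythroid markers. Of 6 measured macrophage markers, 5 rose with OHT (limma-voom, adjusted p under 0.05). The summed level of all 6 was 3529 and 4851 in OHT libraries, against 2399 and 862 in EtOH libraries, so EtOH library B was the lowest. Most of that sum was Emr1, which was not called (log2 fold change 1.35, limma-voom adjusted p = 0.0515). It had 2375 and 3315 in OHT libraries and 1882 and 634 in EtOH libraries. Marco and C1qb, at most 6.51 in EtOH libraries, were higher in EtOH library B than in A. T cell markers were near 0, with a sum of 1.68 and 0 in OHT libraries and 0.829 and 0 in EtOH libraries.

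The cell-cycle regulators called between OHT and EtOH were of several roles. At 2 libraries a group, a gene that was not called is not shown to be unchanged. Limma-voom on the summed reads, with Benjamini-Hochberg adjustment over all 11072 genes with at least 10 reads in 2 libraries, was fitted for 46 of the 53. It called 4 lower with OHT, the kinase gene Wee1, the phosphatase gene Cdc25a, the pocket protein gene Rbl1 and E2f8, and 2 higher, the cyclin gene Ccnd1 and Cdk14. That is 8.70% of the 46 lower and 4.35% higher, against 5.68% and 10% of all fitted genes, so the share called higher was under the background and the share called lower was somewhat over it; neither gap was tested. In the authors' deposited table, which tests single transcripts, Wee1, Cdc25a and Rbl1 passed an adjusted p of 0.05 as lower and Cdk14 as higher, where 1.85% of all transcripts were lower and 3.62% higher. When OHT library A was left out limma-voom called 2 lower (Wee1 and Cdc25a) and 2 higher, where 1.18% of all fitted genes were lower and 7.0% higher. When EtOH library A was left out it called 11 lower and 4 higher, where 9.35% of all fitted genes were lower and 13.7% higher. It called 3 lower and 2 higher when OHT library B (3.19% and 9.25% of all fitted genes) or EtOH library B (5.39% and 7.03%) was left out. Small negative differences were common: 34 of the 46 had a negative log2 fold change (73.9%, against 54.4% of all fitted genes), and their median was -0.20, against -0.07 over all fitted genes; the count was 31 under scaling by library totals and 29 by upper quartiles. Both OHT libraries lay below both EtOH libraries for 21 of the 46 (45.7%, against 34.2% of all fitted genes; 20 under library totals and 16 under upper quartiles) and above them for 7 (15.2%, against 27.8%). In RNA from a whole culture, fewer cells in a phase and less RNA per cell cannot be told apart.

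**Figure D1:**
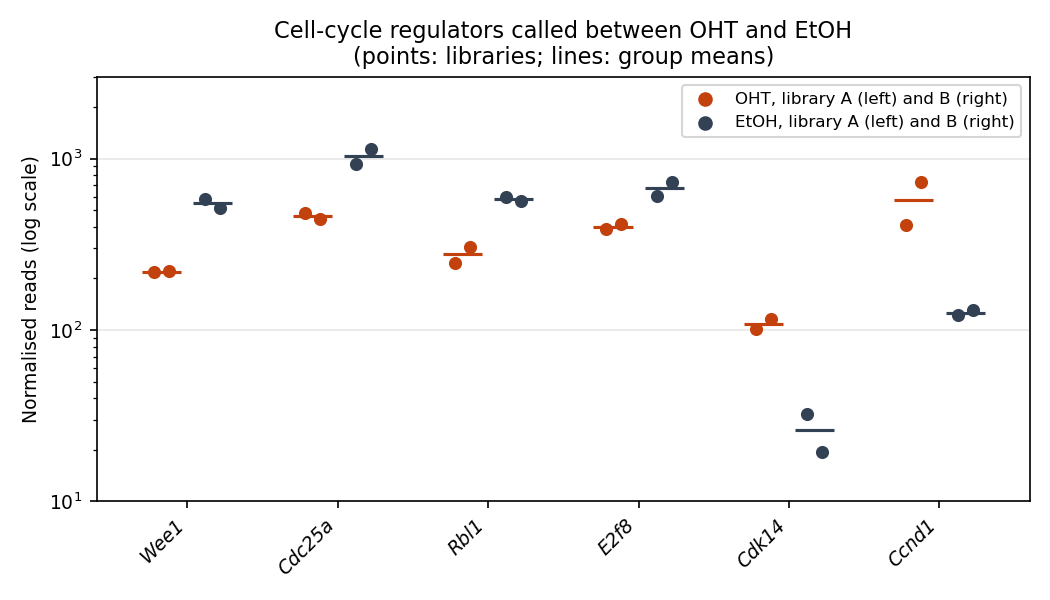
Normalised reads (y axis, log scale) of the 6 genes that limma-voom called between groups, by gene on the x axis, with 1 point per library and a line at the group mean. For each gene the OHT points (left) and EtOH points (right) do not overlap: Wee1, Cdc25a, Rbl1 and E2f8 are lower with OHT, and Cdk14 and Ccnd1 are higher.

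The 4 promoters below are shown because they belong to called genes, 3 of the 4 that fell and 1 of the 2 that rose (Wee1 and Ccnd1 are not among them), and because the pathway's own transcription factors are known to act at such sequences. They are from RefSeq on GRCm38.p6, run 5′ to 3′ on each gene's strand from 250 bases before the annotated start to 50 after it, and cover chr9:109875329-109875628 (plus strand) for Cdc25a, chr2:157204485-157204784 (minus strand) for Rbl1, chr7:48881547-48881846 (minus strand) for E2f8 and chr5:5380202-5380501 (minus strand) for Cdk14. Capitals mark matches to an E2F core (TTTCGCG or TTTGGCG or TTCCCGC, on either strand) or to a CHR element (TTTGAA or TTCGAA, on either strand), an element through which cell-cycle genes are known to be bound by repressor complexes of the pocket proteins.
Cdc25a: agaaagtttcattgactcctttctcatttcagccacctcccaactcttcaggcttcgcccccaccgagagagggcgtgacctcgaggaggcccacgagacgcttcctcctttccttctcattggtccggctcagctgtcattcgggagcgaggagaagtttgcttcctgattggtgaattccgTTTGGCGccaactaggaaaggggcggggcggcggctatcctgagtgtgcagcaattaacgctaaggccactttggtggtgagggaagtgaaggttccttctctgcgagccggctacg
Rbl1: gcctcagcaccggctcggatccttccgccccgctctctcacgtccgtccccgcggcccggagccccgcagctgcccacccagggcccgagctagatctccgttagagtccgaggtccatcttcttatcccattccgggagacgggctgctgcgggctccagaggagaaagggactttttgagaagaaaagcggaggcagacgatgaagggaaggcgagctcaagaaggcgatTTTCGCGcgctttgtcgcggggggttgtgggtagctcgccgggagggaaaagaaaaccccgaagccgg
E2f8: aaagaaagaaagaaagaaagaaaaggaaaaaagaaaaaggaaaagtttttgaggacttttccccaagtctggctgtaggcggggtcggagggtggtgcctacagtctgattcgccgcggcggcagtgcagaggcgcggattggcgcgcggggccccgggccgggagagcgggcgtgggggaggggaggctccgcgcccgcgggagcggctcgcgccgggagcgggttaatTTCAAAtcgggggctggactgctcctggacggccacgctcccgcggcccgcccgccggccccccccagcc
Cdk14: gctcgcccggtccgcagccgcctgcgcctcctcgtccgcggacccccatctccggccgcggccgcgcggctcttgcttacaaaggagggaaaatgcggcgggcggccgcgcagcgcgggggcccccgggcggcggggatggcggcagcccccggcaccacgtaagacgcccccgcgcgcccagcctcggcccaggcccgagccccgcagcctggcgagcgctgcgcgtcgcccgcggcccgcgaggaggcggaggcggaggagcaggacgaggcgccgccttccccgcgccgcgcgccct
The Cdc25a window held TTTGGCG beginning 67 bases before the start, and the Rbl1 window held TTTCGCG beginning 18 bases before it. The E2f8 window held TTTGAA on the opposite strand, 20 bases before the start, and none of the 5 motifs was found in the Cdk14 window. An E2F core was present in 6.72% of all 32851 promoters of the table and in 12 of the 40 regulators matched to it (30%), where 12.4% of all matched genes of the deposited table had at least 1 promoter with a core. A CHR element was present in 19.2% of all promoters and in 11 of the 40 (27.5%, against 16.7% of matched genes). Among the matched regulators with a fit, the 11 with an E2F core had a median log2 fold change of -0.46, and the 24 without one had -0.09; the medians were -0.15 for the 10 with a CHR element and -0.17 for the 25 without. These are matches of letters and were not tested against the expression values.

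The D-type cyclins, which open G1, did not move together. Ccnd1, which encodes cyclin D1, had 409 and 732 normalised reads in OHT libraries A and B, against 123 and 130.2 in EtOH libraries A and B. Both OHT libraries were thus more than 3 times either EtOH library, although they differed from each other more than the EtOH libraries did. The means of 571 ± 229 with OHT and 126 ± 5.29 with EtOH (SD, n = 2 each) gave a 4.51-fold higher level, and limma-voom a log2 fold change of 2.10 ± 0.34 (SE, 95% interval 1.35 to 2.85, adjusted p = 0.00437). Leaving out any single library kept the limma-voom call, with log2 fold changes between 1.69 and 2.53. Ccnd1 missed the threshold in the authors' deposited table, which gives means of 572 for OHT and 128 for EtOH (adjusted p = 0.0585). Ccnd2, which encodes cyclin D2, had far more reads than the other D-type cyclin genes, with 2567 and 3540.1 in OHT libraries and 3282 and 2440.1 in EtOH libraries. Its groups overlapped, and limma-voom gave 0.09 ± 0.24 (SE, 95% interval -0.44 to 0.62, adjusted p = 0.826). Ccnd3, which encodes cyclin D3, had 78.9 and 87.1 with OHT and 60.5 and 62.5 with EtOH, without overlap but not past the test (log2 fold change 0.42, limma-voom adjusted p = 0.418); its count comes from 2 transcripts that may share reads.

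Levels of different genes can be set side by side only per transcript length, which was possible for Ccnd1 and Ccnd2 because each has 1 transcript in the table. Per kilobase, Ccnd1 had 109 and 196 normalised reads in OHT libraries and 32.8 and 34.8 in EtOH libraries, while Ccnd2 had 406 and 559 with OHT and 519 and 385 with EtOH. Ccnd1 therefore made up 21.2% and 25.9% of the length-corrected sum of both genes in OHT libraries, against 5.95% and 8.28% in EtOH libraries. Ccnd2 remained the larger part in each of the 4 libraries. With 2 libraries a group, an exact two-sided permutation test of such a share cannot go below p = 0.333. Cdk4, a kinase partner of the D-type cyclins, had 996 and 1208 normalised reads with OHT and 1301 and 1836 with EtOH. Its OHT libraries were the lower, but it did not pass the test (log2 fold change -0.49, 95% interval -1.01 to 0.02, limma-voom adjusted p = 0.173). Its limma-voom value was -0.74 (adjusted p = 0.0477) when EtOH library A was left out, -0.24 (0.531) for EtOH library B, -0.34 (0.690) for OHT library A and -0.62 (0.244) for OHT library B.

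Among the pocket proteins and E2F factors, Rbl1 and E2f8 fell. Rbl1, which encodes the pocket protein p107, had 247 and 307 normalised reads in OHT libraries A and B, against 595 and 566 in EtOH libraries A and B. The groups were far apart, with a mean 2.10-fold lower with OHT and a log2 fold change of -1.09 ± 0.23 (SE, 95% interval -1.59 to -0.58, limma-voom adjusted p = 0.0129). Without OHT library A the limma-voom value was -0.92 (adjusted p = 0.164). The major transcript, NM_011249, had means in the authors' deposited table of 261 for OHT and 524 for EtOH (adjusted p = 0.0150), and the minor one, NM_001139516, had 18.0 for OHT and 59.0 for EtOH (adjusted p = 0.475). E2f8, an atypical E2F that represses transcription without a DP partner, had 386 and 414 normalised reads with OHT and 606 and 733 with EtOH, a mean 1.67-fold lower. Its limma-voom call was close to the threshold, with a log2 fold change of -0.73 ± 0.22 (SE, adjusted p = 0.0460). The call was lost without OHT library A (adjusted p = 0.352), OHT library B (adjusted p = 0.169) or EtOH library B (adjusted p = 0.0920), and under scaling by library totals (0.0662) or upper quartiles (0.0774), all by limma-voom. The authors' deposited table has 0.161 as its adjusted p.

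The other genes of this group did not pass the test. Rb1, the founding retinoblastoma gene, had 655 and 659.8 normalised reads with OHT and 903 and 727 with EtOH (log2 fold change -0.31, limma-voom adjusted p = 0.353). Of the activator E2F genes, E2f1 had 501 and 429 with OHT and 552 and 909 with EtOH, a difference set largely by EtOH library B (log2 fold change -0.59, 95% interval -1.18 to -0.00, limma-voom adjusted p = 0.155). E2f2 had 1037 and 595 with OHT and 589.6 and 915 with EtOH, with wide overlap, and E2f3 had 469 and 605 with OHT and 634 and 577 with EtOH, also with overlap. E2f4, the main E2F of quiescent cells and a partner of the pocket proteins, had 847 and 899.8 with OHT and 1146 and 1238 with EtOH. Its groups did not overlap, at a log2 fold change of -0.45 ± 0.20 (SE, limma-voom adjusted p = 0.150). Tfdp1, which encodes the DP1 partner of E2F, had 1229.6 and 1411 with OHT and 1619 and 2249 with EtOH (log2 fold change -0.53, limma-voom adjusted p = 0.133). E2f7, the relative of E2f8, had 115 and 109 with OHT and 143 and 160.2 with EtOH (-0.41, limma-voom adjusted p = 0.351), while E2f5 overlapped between groups. Of the 10 fitted genes of this group, 9 had a negative log2 fold change (54.4% of all fitted genes did) and 7 had both OHT libraries below both EtOH libraries (34.2% of all fitted genes did). E2f6 had 16 reads in OHT and 30 in EtOH libraries and Tfdp2 had 8 and 9 in the same order, too few for the fit.

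At the G1/S transition the phosphatase gene Cdc25a was the one called, and it fell. CDC25A removes the inhibitory phosphates from CDK2 and CDK1, and its gene had 483 and 447 normalised reads in OHT libraries, against 934 and 1143 in EtOH libraries. The OHT values were close to each other and far below either EtOH value, a mean 2.23-fold lower. The log2 fold change was -1.15 ± 0.21 (SE, 95% interval -1.62 to -0.67, limma-voom adjusted p = 0.00810), and its adjusted p was 0.00421 in the authors' deposited table. The call held without any single library in limma-voom, at values between -1.297 and -1.004. Ccne1, which encodes cyclin E1, had 249 and 212 with OHT and 325 and 414 with EtOH, without overlap. Its log2 fold change of -0.65 ± 0.25 (SE) did not pass the test (limma-voom adjusted p = 0.102). Cks1b, a CDK-binding cofactor of the SCF ubiquitin ligase that degrades p27, had 346 and 382 with OHT and 415 and 615 with EtOH (-0.46, limma-voom adjusted p = 0.236). Cdk2, the kinase partner of cyclins E and A, had 30.2 and 39.1 with OHT and 58.9 and 41.7 with EtOH, at so few reads that its 95% interval ran from -1.48 to 0.34. All 4 fitted genes of this group lay below both EtOH libraries in both OHT libraries, as did 34.2% of all fitted genes. Skp2, the substrate receptor of the same ligase, had 15 reads with OHT and 38 with EtOH, and Ccne2 had 5 and 12 in the same order; both have 2 transcripts in the table and were too low for the fit.

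Of the regulators of S phase, G2 and mitosis, the inhibitory kinase gene Wee1 was the one called, and it fell, as did the gene of the opposing phosphatase Cdc25a. Wee1 had 218 and 219.9 normalised reads in OHT libraries, against 579 and 517 in EtOH libraries. The means were 219 ± 1.11 with OHT and 548 ± 43.8 with EtOH (SD, n = 2 each), 2.50-fold lower with OHT. The log2 fold change was -1.32 ± 0.23 (SE, 95% interval -1.83 to -0.82, limma-voom adjusted p = 0.00594) and the authors' deposited table has 0.000796 as its adjusted p. The limma-voom value lay between -1.40 and -1.24 without any single library, called each time. The cyclin and kinase genes of S phase, G2 and mitosis did not pass the test. Cdk1, the mitotic kinase, had 454 and 482 with OHT and 610.3 and 792 with EtOH (-0.57 ± 0.22 SE, limma-voom adjusted p = 0.109). Ccna2, which encodes cyclin A2, had 584 and 564 with OHT and 689 and 918 with EtOH (-0.46 ± 0.22 SE, limma-voom adjusted p = 0.179). The B-type cyclin genes overlapped between groups: Ccnb1 had 588 and 692 with OHT and 684 and 749 with EtOH, and Ccnb2 had 418 and 426 with OHT and 399.7 and 531 with EtOH. Ccnb1 had a log2 fold change of -0.17 ± 0.21 (SE, limma-voom adjusted p = 0.629). The 95% intervals, -0.63 to 0.30 for Ccnb1 and -0.62 to 0.40 for Ccnb2, leave room for changes in either direction.

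The mitotic phosphatase genes lay on opposite sides of 0. Cdc25c had 61.3 and 49.1 normalised reads with OHT and 91.2 and 107 with EtOH (-0.82, limma-voom adjusted p = 0.131). Cdc25b had 19.3 and 14.5 with OHT and 7.46 and 6.51 with EtOH (1.21, 95% interval -0.07 to 2.49, limma-voom adjusted p = 0.181), from 2 transcripts and few reads. Cks2, the second CKS cofactor, had 317 and 411 with OHT and 424 and 579 with EtOH (-0.45, limma-voom adjusted p = 0.244). Ccna1, the germline A-type cyclin gene, had 4 reads in OHT libraries, all in library A, and 0 in EtOH libraries.

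**Figure D2:**
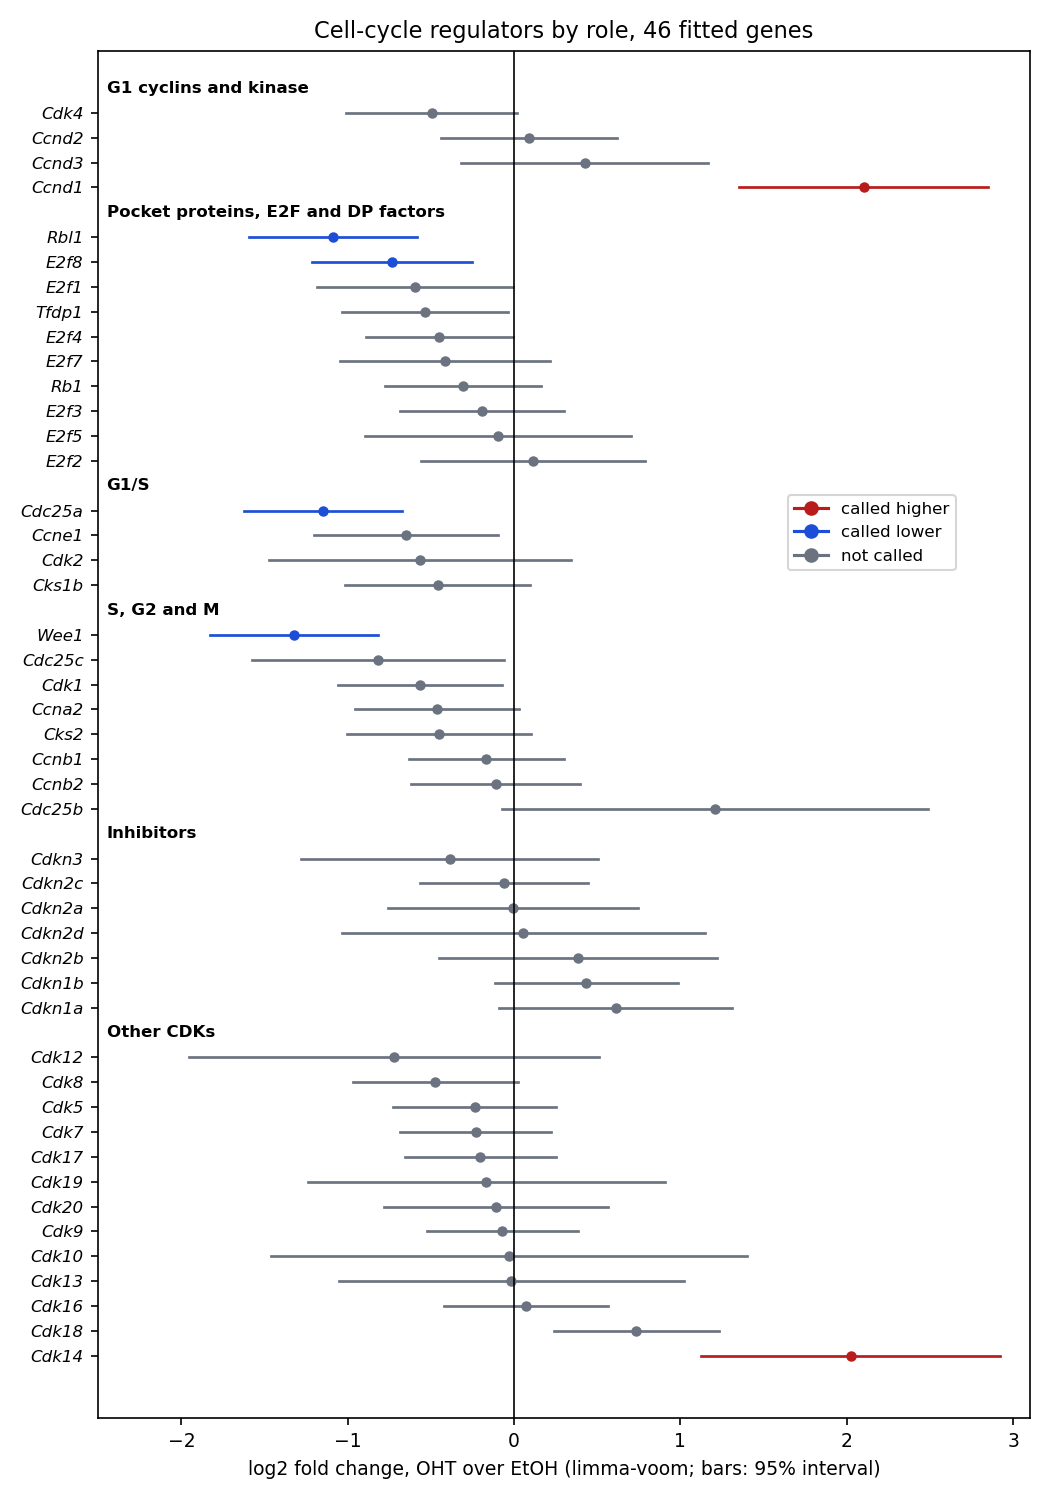
Log2 fold change of OHT over EtOH from limma-voom on summed reads (x axis) for the 46 fitted regulators, grouped by role down the page, with 95% intervals as bars; blue marks genes called lower, red genes called higher and grey genes not called. The G1/S genes and most E2F and pocket protein genes sit left of 0, the inhibitors sit on both sides of it, and Ccnd1 and Cdk14 stand apart at 2.10 and 2.02.

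No CDK inhibitor gene passed the test. Among the 7 fitted, the median log2 fold change was 0.06, 3 were negative and 4 positive, and the median was -0.02, with 4 negative, when EtOH library B was left out. Limma-voom called 0 of them, and 0 had an unadjusted limma-voom p below 0.05; the authors' deposited table also calls 0. Cdkn2a, which encodes p16INK4a and p19ARF and is deleted in both groups by the stated genotype, still had 74.7 and 81.5 normalised reads in OHT libraries, against 88.7 and 66.4 in EtOH libraries. The groups overlapped at a log2 fold change of -0.01 ± 0.34 (SE, 95% interval -0.76 to 0.74, limma-voom adjusted p = 0.991), whose sign turned under other scalings. Which exons the deletion takes is not stated, and where in the gene these reads lie is not known, so this count does not check the genotype. Cdkn2b, the neighbouring INK4 inhibitor p15, had 401 and 589 with OHT and 559.8 and 225 with EtOH. The wide EtOH spread decided its value: limma-voom gave 0.38 ± 0.38 (SE, adjusted p = 0.527) with all libraries, 1.10 (adjusted p = 0.0328) without EtOH library A and -0.21 (adjusted p = 0.635) without EtOH library B.

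The fitted CIP/KIP inhibitors, Cdkn1b and Cdkn1a, were higher in both OHT libraries than in either EtOH library, but within the error of the fit. They were the only 2 of the 7 fitted inhibitors so placed. That is 28.6%, close to the 27.8% of all fitted genes. Cdkn1b, which encodes p27, had 519.9 and 434 with OHT and 414 and 292 with EtOH (0.43, 95% interval -0.12 to 0.98, limma-voom adjusted p = 0.258). Cdkn1a, which encodes p21, a target of p53, had 118 and 115 with OHT and 83.8 and 67.7 with EtOH (0.61, 95% interval -0.09 to 1.31, limma-voom adjusted p = 0.212). Cdkn1c, which encodes p57, had 2 reads with OHT and 0 with EtOH, at the floor. Cdkn2c, the INK4 inhibitor p18, had 430.0 and 344 with OHT and 392 and 418 with EtOH, and Cdkn2d, p19INK4d, had 20.2 and 16.7 with OHT and 17.4 and 18.2 with EtOH, both with overlap. Cdkn3, a CDK-associated phosphatase, had 82.3 and 52.5 with OHT and 68.0 and 121 with EtOH. At 2 libraries a group these intervals do not show that the inhibitors stayed the same.

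**Figure D3:**
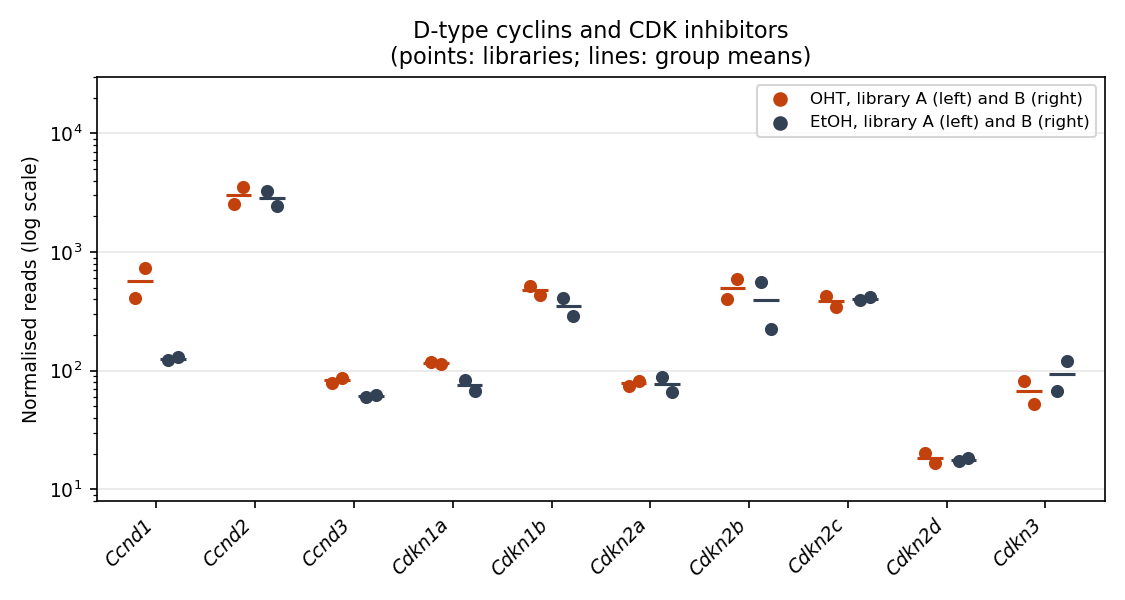
Normalised reads (y axis, log scale) of the D-type cyclin genes and the 7 fitted CDK inhibitor genes, by gene on the x axis, with 1 point per library and a line at the group mean. Ccnd1, the one gene here that was called, has OHT at 409 and 732 and EtOH at 123 and 130.2; Ccnd3, Cdkn1a and Cdkn1b also have groups that do not overlap, and the other genes overlap.

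Among the other CDKs, which act in transcription, signalling or unknown processes, Cdk14 rose. CDK14 is a CDC2-related kinase known to pair with cyclin Y and to act in Wnt signalling. It had 101 and 116 normalised reads in OHT libraries, against 32.3 and 19.5 in EtOH libraries. Its groups were well apart, 4.18-fold higher on average, with a log2 fold change of 2.02 ± 0.40 (SE, 95% interval 1.13 to 2.92, limma-voom adjusted p = 0.0107); in the authors' deposited table its adjusted p was 0.00142. Without any single library limma-voom called it each time, between 1.72 and 2.42. Cdk18, a relative of Cdk16 and Cdk17, had 1019.6 and 1089.6 with OHT and 737 and 535 with EtOH, and just missed the threshold (0.73 ± 0.22 SE, limma-voom adjusted p = 0.0507; 0.188 in the authors' deposited table). It was called in 5 of 11 alternatives: by limma-voom under library totals (adjusted p = 0.0364) and upper quartiles (0.0281), with no filter on low reads (0.0362) and when EtOH library A was left out (0.0132), and by limma-trend at a pseudocount of 5 (0.0479). It was not called by limma-voom when OHT library A (0.198), OHT library B (0.203) or EtOH library B (0.134) was left out, at a minimum of 30 reads (0.0512) or on the transcript with the highest mean (0.05004), nor by limma-trend at a pseudocount of 1 (0.0538). Cdk16 had 784 and 649.7 with OHT and 760.4 and 603 with EtOH. Cdk17 had 1329.5 and 1264 with OHT and 1642 and 1355 with EtOH (-0.20 ± 0.20 SE, 95% interval -0.66 to 0.25, limma-voom adjusted p = 0.537). Neither passed the test.

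No kinase of the transcription machinery passed the test. Cdk9, of the elongation factor P-TEFb, had 1266 and 1309.5 with OHT and 1228 and 1489.6 with EtOH, with overlap (-0.07 ± 0.20 SE, 95% interval -0.52 to 0.38, limma-voom adjusted p = 0.844); its sign turned under upper quartiles. Cdk7, the CDK-activating kinase that is also part of TFIIH, had 579 and 533 with OHT and 675 and 629 with EtOH (-0.23, limma-voom adjusted p = 0.478). Cdk8, of the Mediator kinase module, had 616 and 477 with OHT and 699.9 and 820.3 with EtOH (-0.47, limma-voom adjusted p = 0.176). Cdk5 and Cdk20 had log2 fold changes of -0.24 and -0.11, and Cdk10, Cdk12, Cdk13 and Cdk19 had at most 42.3 normalised reads in any library. Cdk12 had the lowest log2 fold change of the other CDKs, with a wide interval (-0.72, 95% interval -1.95 to 0.51, limma-voom adjusted p = 0.407). Cdk15 had 1 read in each group. Of the 13 fitted genes, 10 had a negative log2 fold change (54.4% of all fitted genes did), with a median of -0.11.

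Genes known to be activated by E2F were lower with OHT as a list. Of 16 fitted textbook E2F target genes, 11 fell and none rose in limma-voom (68.8%, against the 5.68% of all fitted genes), and 5 fell in the authors' deposited table. All 16 had a negative log2 fold change (54.4% of all fitted genes did), with a median of -0.94. Pola1, the catalytic subunit of DNA polymerase alpha, had 230.1 and 258 normalised reads with OHT and 729 and 732 with EtOH, the lowest log2 fold change of the list (-1.59 ± 0.22 SE, limma-voom adjusted p = 0.00326). The 6 minichromosome maintenance genes Mcm2 to Mcm7, which encode the replicative helicase, were all called lower, Mcm7 not under scaling by library totals or upper quartiles. The number of E2F target genes called was smaller without OHT library A, OHT library B or EtOH library B, and larger without EtOH library A. The share of all fitted genes called lower moved the same way in each of these fits. The median log2 fold change of the 16 stayed between -1.07 and -0.86. EtOH library B was above EtOH library A for 13 of the 16, against 4640 of all 11072 fitted genes, and it also had the lowest sum of macrophage markers. OHT library B was likewise above OHT library A for 13 of the 16, against 6033 of all 11072 fitted genes. The part of these differences in the result was not tested.

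Of 17 fitted regulators of cyclin and CDK activity outside the rule, 5 fell and none rose in limma-voom (29.4% lower, against 5.68% of all fitted genes), and 3 fell in the authors' deposited table. They were Pkmyt1, the membrane-bound relative of Wee1, Chek1, the replication checkpoint kinase that acts on CDC25A, the licensing factor gene Cdt1, Fbxo5, an inhibitor of the anaphase-promoting complex, and Ccnh, the cyclin partner of CDK7. Pkmyt1 had 199 and 166 normalised reads with OHT and 415 and 671 with EtOH (-1.50 ± 0.29 SE, limma-voom adjusted p = 0.00970). Chek1 had 146 and 139.5 with OHT and 359 and 396 with EtOH (-1.39 ± 0.25 SE, limma-voom adjusted p = 0.00704). Both genes of the inhibitory CDK kinases, Wee1 and Pkmyt1, were thus called lower by limma-voom together with Cdc25a. The authors' deposited table calls Wee1 and Cdc25a lower but not Pkmyt1. Of the 5 genes, it calls Fbxo5, Chek1 and Cdt1. Without OHT library A the limma-voom calls of Fbxo5, Ccnh and Cdt1 were lost, and the share of all fitted genes called lower also fell. None of 6 fitted genes listed as DREAM and MuvB partners, Mybl2 and Foxm1 among them, passed the test. Their median was -0.54, and all 6 were negative, as were 54.4% of all fitted genes. Limma-voom called 0 of these 6 with all libraries. Mybl2 and Foxm1 were called without EtOH library A, where the share of all fitted genes called lower was also larger. Of 7 listed upstream inputs to G1, 6 were measured and fitted, and Myc was not among them. Limma-voom called 1 of the 6 lower, the zinc finger repressor gene Gfi1, and 0 higher. That is 16.7% lower, where 5.68% of all fitted genes were lower and 10% higher.

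**Figure D4:**
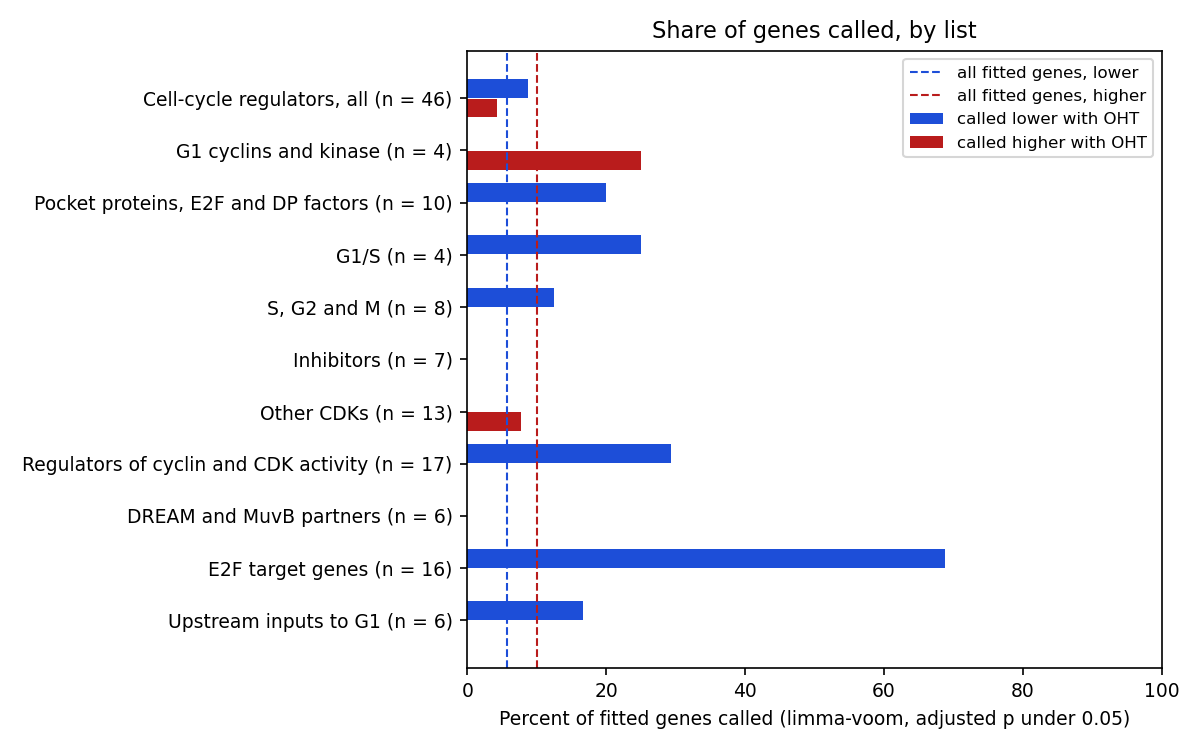
Percent of fitted genes that limma-voom called lower (blue) or higher (red) with OHT (x axis) in each group of cell-cycle regulators and in 4 lists of related pathway genes (y axis, n = fitted genes); dashed lines mark 5.68% lower and 10% higher over all fitted genes. E2F target genes reach 68.8% lower, while all 46 regulators reach 8.70% lower and 4.35% higher.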

How the data were processed

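RNA-seq libraries of 2 OHT and 2 EtOH samples were made with the TruSeq RNA kit v2, which does not mark strand, per the labels' protocols. TopHat, DESeq and genome build mm9 are named in the submitters' processing notes, without roles; the read counter is not given in the sources used here. The deposited file holds, per RefSeq transcript, a signal for each group, which per the file headers is a base mean, its fold change (the ratio of OHT over EtOH by the values), the log2 of that ratio, and p-values, all made by the authors. Benjamini-Hochberg adjustment of their p over the 18061 transcripts gives their adjusted p to within 2.63e-06.

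Each mean was solved for whole reads in both libraries of its group, allowing for 1 added read per library, at a tolerance of 1 unit in the tenth significant digit; 100% of means had exactly 1 solution, against 0.177% (OHT) and 0.138% (EtOH) of means moved by up to 0.1%. The solved size factors (1.191 and 0.896 for OHT, 1.206 and 0.768 for EtOH) equal the median of ratios of the solved reads plus 1. Deposited means include the added read and normalised reads do not. The largest count of a transcript was 9874 reads, 0.158% of its library, and whether duplicate reads had been removed is not stated.

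Reads were summed per symbol and fitted with limma-voom (limma 3.58.1, R 4.3.3) for genes with at least 10 reads in 2 libraries. They were scaled by the solved size factors, and the adjusted p threshold was 0.05. Each gene had 2 residual degrees of freedom, and its variance was moderated by those of all fitted genes. The p-values and intervals therefore rest on more than the gene's own 2 degrees of freedom. The solving and fitting scripts were tested on simulated data. The genes, lists and tests were chosen with earlier results of these data known. Full values are given for called genes, Cdkn2a and the 2 genes with the highest mean in each role; others named were chosen after their values were seen. Of the 53 genes, 9 have 2 transcripts, and reads shared between transcripts may be lost: the median level was 18.8 normalised reads for these and 436 for the other 44. Reads of overlapping and antisense genes cannot be told apart. Transcript lengths are GENCODE M21's, matched by RefSeq accession.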

Additional observations from a re-analysis of the deposited data

How the results depend on the processing

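No paired analysis was possible because no file ties the solved libraries to the labels' replicate numbers. Counts of lower regulators in limma-voom ran from 2 to 11 and of higher ones from 2 to 4 when 1 library was left out (a lone library was assumed to vary like the others), and counts of lower pathway genes outside them from 5 to 21, against 17 with all libraries; the authors' own calls gave 9 of these. In the authors' deposited table, 1 regulator was called higher at an adjusted p of 0.05 (3.62% of all transcripts were), 1 at 0.01 and 2 at 0.1. Lower ones numbered 3 at 0.05 (1.85% of all transcripts were), 2 at 0.01 and 3 at 0.1. Limma-voom per transcript called 2 higher and 4 lower. Shares over all transcripts are given at 0.05 in that table alone, so the other counts have no background beside them. The median log2 fold change of the regulators kept its sign under every alternative run. Of 198 values of 18 single genes under alternatives, 176 kept direction and call, 6 lost a call, 5 gained one and 11 changed sign, all 11 for genes that were not called; Cdk18, not among the 18, gained a call in 5 of its 11 alternatives. The log2 fold change of Cdkn2a was 0.0526 by library totals, 0.0798 by upper quartiles, 0.0235 with limma-trend at a pseudocount of 1 and 0.0218 at 5, and ran from -0.189 to 0.222 without 1 library. That of Ccnd2 ran from -0.152 to 0.316, that of Cdkn2b from -0.213 to 1.10 and that of Cdk9 from -0.209 to 0.0688 without 1 library, and Cdk9 was 0.0129 by upper quartiles. The cause of these changes was not tested. Depth limits the 7 genes left out of the fit and Cdk2, Cdk10, Cdk12, Cdk13, Cdk19, Cdkn2d and Cdc25b.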
